A study of Homo sapiens with 22 samples.

Results

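The S100 genes encode small calcium-binding proteins that carry EF-hand motifs, and 10 of them were followed here: S100A2, S100A3, S100A4, S100A6, S100A10, S100A11, S100A13, S100A14, S100A16 and S100P. They were named by symbol and selected on FPKM values of these same libraries, in which S100A6 is the highest gene of many. Those levels are given below as description, and the choice had no threshold: S100A14, which was chosen, reached at most 0.383 FPKM (fragments mapped to a gene, scaled by its length and by the size of the library) in the knockdown experiment, and S100A5, which was not, reached 18.5 FPKM. All 10 were found among the 60669 genes of the knockdown table and of the DMSO table, and 9 (without S100A14) among the 14954 genes of the CTRL table. A gene was tested where it had at least 1 FPKM in at least 2 libraries of its table, which held for 9 S100 genes of 14638 genes in the knockdown experiment, 8 of 14936 in the DMSO experiment (S100A14 and S100P were too low) and 9 of 13261 in the CTRL experiment.

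RNA-seq had been done on 22 libraries of MDA-MB-231, an established breast cancer line of mesenchymal character, in 11 groups of 2. All are labelled as wild type in genotype. The knockdown experiment held shM3 cells carrying added METTL3-WT (shM3_WT), shM3 cells carrying added METTL3-CD (shM3_CD), shM3 cells and cells labelled B5, at 2 to 3 months. METTL3 is the catalytic subunit of the complex that writes m6A, a methyl mark on adenosines of RNA, and the labels do not spell out B5 or CD, nor do they say how many constructs or clones each line rests on. The DMSO experiment held cells given I-BET151, Molib (MOLIB in the treatment label) or JQ1, each at 0.5 µM for 3 days, and cells given the solvent DMSO. The CTRL experiment held cells labelled MW_JQ1, given 0.5 µM JQ1, cells given 0.5 µM JQ1 and CTRL cells, all at 3 days, and what MW stands for is not given. JQ1 and I-BET151 are inhibitors of the bromodomains of BET proteins, which read acetylated histones at active genes, and Molib is not expanded in the labels. Whether a group's libraries are independent cultures is not stated in the labels, and the p-values then measure only how far these libraries differ, which may be technical.

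S100 proteins mostly work as dimers that expose a binding surface on taking up calcium and then engage partner proteins, among them annexins and myosin. Some also leave the cell and act on receptors such as AGER (RAGE) and TLR4. Most of the human genes lie close together on the long arm of chromosome 1, and several members are studied in breast cancer for cell movement and spread. S100A4 binds non-muscle myosin and is known for its part in metastasis, S100A6 (calcyclin) binds CACYBP and annexins, and S100A10 lacks calcium binding and pairs with annexin A2 (ANXA2) at the membrane, where it holds the plasminogen activator PLAT.

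S100A2, S100A3, S100A4 and S100A6 were 4 of the 6 S100 genes called lower in shM3 cells than in B5 cells. S100A10 and S100A11 were higher there. S100P was lower there and lowest with METTL3-WT. The sequences that belong to the results are the stretches of 250 bases before the start sites of these genes. They are RefSeq sequences of GRCh38.p14, written 5′ to 3′ on the strand of the gene, and capitals mark 4 motifs searched on both strands: TATAAA (the TATA box), TGANTCA (the AP-1 site), GGGCGG (the GC box) and CCAAT.
S100A2: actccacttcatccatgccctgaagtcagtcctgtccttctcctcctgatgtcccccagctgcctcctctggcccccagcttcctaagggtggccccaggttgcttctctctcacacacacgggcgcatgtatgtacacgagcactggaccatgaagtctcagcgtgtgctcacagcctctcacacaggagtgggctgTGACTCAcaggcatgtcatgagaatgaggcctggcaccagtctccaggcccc
S100A3: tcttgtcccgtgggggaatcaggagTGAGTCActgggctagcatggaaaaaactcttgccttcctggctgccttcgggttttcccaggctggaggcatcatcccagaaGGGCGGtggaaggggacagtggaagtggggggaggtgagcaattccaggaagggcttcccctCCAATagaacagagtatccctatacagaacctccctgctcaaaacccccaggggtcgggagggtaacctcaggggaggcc
S100A4: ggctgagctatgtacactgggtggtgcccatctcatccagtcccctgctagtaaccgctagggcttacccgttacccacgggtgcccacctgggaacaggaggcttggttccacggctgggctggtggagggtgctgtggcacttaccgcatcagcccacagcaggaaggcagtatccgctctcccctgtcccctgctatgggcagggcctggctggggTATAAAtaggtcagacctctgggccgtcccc
S100A6: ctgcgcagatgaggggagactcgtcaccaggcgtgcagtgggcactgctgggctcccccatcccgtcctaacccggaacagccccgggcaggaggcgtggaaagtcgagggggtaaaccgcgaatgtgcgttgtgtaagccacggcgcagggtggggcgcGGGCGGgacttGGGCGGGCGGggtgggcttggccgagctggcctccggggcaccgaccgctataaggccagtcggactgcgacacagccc
S100A10: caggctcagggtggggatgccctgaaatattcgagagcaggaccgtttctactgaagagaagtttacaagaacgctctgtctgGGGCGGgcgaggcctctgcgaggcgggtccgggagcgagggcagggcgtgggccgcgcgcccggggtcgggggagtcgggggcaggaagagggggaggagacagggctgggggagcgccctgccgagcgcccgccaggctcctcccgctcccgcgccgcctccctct
S100A11: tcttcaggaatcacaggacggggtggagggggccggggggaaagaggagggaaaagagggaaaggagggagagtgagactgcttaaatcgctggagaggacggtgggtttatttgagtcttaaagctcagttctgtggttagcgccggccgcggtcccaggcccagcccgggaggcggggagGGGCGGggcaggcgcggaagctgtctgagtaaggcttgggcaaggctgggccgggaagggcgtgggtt
S100P: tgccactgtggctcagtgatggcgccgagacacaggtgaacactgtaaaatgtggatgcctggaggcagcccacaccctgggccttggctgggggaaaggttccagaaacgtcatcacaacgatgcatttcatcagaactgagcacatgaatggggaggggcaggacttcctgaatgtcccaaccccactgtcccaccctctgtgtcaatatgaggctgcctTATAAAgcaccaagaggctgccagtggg
The windows run from chr1:153565845-153566094 for S100A2, chr1:153549259-153549508 for S100A3, chr1:153545807-153546056 for S100A4 and chr1:153535992-153536241 for S100A6 to chr1:151993860-151994109 for S100A10 and chr1:152037005-152037254 for S100A11, all on the minus strand, and chr4:6693628-6693877 on the plus strand for S100P. No motif was shared by S100A2, S100A3, S100A4 and S100A6. S100A16, also called lower in shM3 cells and not printed here, held none of the motifs in its window. TGANTCA began at position -52 from the start site of S100A2 and at -225 from that of S100A3, and 6.57% of 35116 promoters held it. TATAAA, found in 10.7% of promoters, began at -31 in S100A4 and at -28 in S100P. GGGCGG, found in 42.6% of promoters, stood in S100A3, S100A10 and S100A11 once each and in S100A6 at -90, -79 and -75, the last pair overlapping. CCAAT, found in 32.0% of promoters, stood in S100A3. These matches describe letters in a window and say nothing of what binds there.

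Before the S100 values, a few facts of the libraries bear on them. METTL3 was listed at 312 and 311 FPKM in shM3_WT, 277 and 270.5 FPKM in shM3_CD, 4.39 and 4.80 FPKM in shM3 and 20.1 and 23.8 FPKM in B5, as the labels say. HEXIM1, a gene that BET inhibitors are known to raise, was at 72.9 and 69.6 FPKM with Molib and 73.8 and 76.7 FPKM with JQ1, against 26.5 and 29.4 FPKM with DMSO. In the libraries labelled I-BET151 it was at 10.3 and 6.37 FPKM, which goes against the label, so these are called the libraries labelled I-BET151 throughout. In the CTRL experiment the JQ1 and CTRL libraries had 3374 to 5301 of 14954 genes at 0 and 37435 to 52947 FPKM of the small RNA RN7SL1, whereas the MW_JQ1 libraries had 306 and 276 genes at 0 and 23.8 and 57.6 FPKM of RN7SL1. METTL3 was at 212 and 234 FPKM in MW_JQ1, 11.8 and 0 FPKM in JQ1 and 31.2 and 1.18 FPKM in CTRL there. In B5 replicate 2, PIDD1 alone was listed at 8234200 FPKM and is left out of the shares below. Read depth is unknown, since only FPKM was deposited. The mesenchymal markers VIM, AXL and CD44 were present in the knockdown and DMSO experiments (at least 549, 137 and 25.7 FPKM) and SPARC was at most 1.22 FPKM. Of other cells, the T cell gene CD3E was at 0 in both experiments and the luminal gene ESR1 was at most 0.0599 FPKM, while the keratin KRT19 reached 989.9 FPKM. Other members of these lists were present. In the knockdown experiment the luminal markers EPCAM and GATA3 reached 10.9 and 7.46 FPKM. The haematopoietic markers CD14, LYZ and CSF1R reached 16.8, 4.50 and 2.25 FPKM there. The summed FPKM of 7 fibroblast and endothelial markers was at most 12.8 in these experiments.

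S100A6 was the most abundant S100 gene in every library. On the FPKM scale, which takes length into account, it ranged over 5021 to 10927 FPKM in the knockdown experiment, 3726 to 6609 FPKM in the DMSO experiment and 5275 to 12248 FPKM in the CTRL experiment. It was the first of all genes in 6 of 8, 2 of 8 and 1 of 6 libraries of these experiments, and its lowest place in any library was 8. S100A6 alone took 61.3% to 83.1% of the summed FPKM of the S100 genes, and the S100 genes together took 1.30% to 3.19% of a library. S100A11 (495 to 1049.7 FPKM over the knockdown and DMSO libraries), S100A10 (377 to 613 FPKM) and S100A4 (224 to 1136 FPKM) formed the next tier, followed by S100A16 (94.6 to 329 FPKM) and S100A13 (37.8 to 163 FPKM). S100A2 and S100A3 were low to moderate, at 5.82 to 80.9 and 3.73 to 46.0 FPKM. S100P stood between 1.80 and 12.8 FPKM in the knockdown experiment and between 0 and 1.1002 FPKM in the DMSO experiment, and S100A14 was at or below 0.383 FPKM in both. These levels took part in the choice of the genes and are given without a test.

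Apart from S100A5, described below, the other S100 genes were low. Of 11 listed beside the 10 (S100A1, S100A5, S100A7, S100A7A, S100A7L2, S100A8, S100A9, S100A12, S100B, S100G and S100Z), only S100A5 passed the filter in the knockdown and DMSO experiments. S100A8 and S100A9, the myeloid pair known from inflammation, were at most 0.0881 and 0.850 FPKM there. S100A1, whose gene runs on the opposite strand across that of S100A13, reached 1.35 FPKM.

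On hg38, 9 of the 10 genes lie on chromosome 1, all on the minus strand, and S100P lies on chromosome 4 on the plus strand. The distances below run between the outermost annotated starts of the genes in GENCODE, which lie upstream of the RefSeq start sites behind the promoter windows above, by most for S100A11 and S100A4. Counting from that of S100A6 (chr1:153534599-153536244), S100A5 starts 5.5 kb away, S100A3 (chr1:153547329-153549372) 13.1 kb, S100A4 (chr1:153543613-153550136) 13.9 kb, S100A2 (chr1:153561108-153567890) 31.6 kb, S100A16 76.9 kb, S100A14 80.7 kb and S100A13 95.1 kb away on the same side. S100A11 (chr1:152032506-152047907) and S100A10 (chr1:151982915-151994390) lie on the other side, at -1488.3 and -1541.9 kb. The annotated S100A4 gene spans S100A3 on the same strand, so reads could be split between them, and the values of S100A3, the lower of the pair, are uncertain for that. S100A13 overlaps AL162258.1 on the same strand and S100A1 on the other, and S100A6 overlaps the antisense gene BX470102.1 (at most 6.22 FPKM), and whether strand was used in counting is not given.

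The first comparison asked how the family differed when METTL3 was lowered. In shM3 cells against B5 cells, 8 of the 9 S100 genes tested passed the limma test (adjusted p under 0.05 over all genes), 6 lower and 2 higher, where 37.8% of all 14638 genes passed, 19.9% lower and 17.9% higher. S100A2, S100A3, S100A4 and S100A6, which lie within 31.6 kb of one another, were all lower, and S100A10 and S100A11, on the far side of S100A6, were higher. The S100 genes had a median log2 fold change of -0.52, against -0.00043 over all genes. Summed FPKM of the S100 genes was 7685 ± 8.98 in shM3 and 12316 ± 2102 in B5 (SD, n = 2 each), a gap set mainly by S100A6. In bulk RNA, fewer cells with a transcript and less of it per cell cannot be told apart.

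S100A2, a mostly nuclear member that is lost in many tumours, changed most. It was at 5.82 and 7.53 FPKM in shM3 and at 80.9 and 68.7 FPKM in B5. The groups lie far apart, with every shM3 library under 10 FPKM. The difference was 11.2-fold (log2 fold change -3.31 ± 0.14 SE, adjusted p = 2.9e-05).

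S100A3, a zinc- and calcium-binding protein known from the hair cuticle, was at 15.9 and 15.3 FPKM in shM3 and 43.3 and 46.0 FPKM in B5, with tight replicates in both groups. It was 2.86-fold lower (log2 fold change -1.46 ± 0.09 SE, adjusted p = 8.8e-05). S100A4 was at 487 and 499 FPKM in shM3, against 1136 and 993 FPKM in B5, 2.16-fold lower (log2 fold change -1.10 ± 0.10 SE, adjusted p = 0.0003). S100A6 was at 5153 and 5299 FPKM in shM3 and at 10927 and 8333 FPKM in B5. All shM3 values lay below the lower B5 library, although the B5 libraries differed more from each other than the shM3 libraries did. S100A6 was 1.84-fold lower (log2 fold change -0.87 ± 0.15 SE, adjusted p = 0.0048). These 4 calls held when any one of the 8 libraries was left out. That of S100A6 was lost without the filter on low values (adjusted p = 0.0703).

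S100A10 and S100A11 moved the other way. S100A11, which pairs with annexin A1, was at 1049.7 and 987 FPKM in shM3 and 812 and 621 FPKM in B5, 1.42-fold higher (log2 fold change 0.52 ± 0.12 SE, adjusted p = 0.015). S100A10 was at 612 and 544 FPKM in shM3 and 480.5 and 377 FPKM in B5, 1.35-fold higher (log2 fold change 0.44 ± 0.12 SE, adjusted p = 0.026). The groups did not overlap for either gene, as for 69.1% of all genes, but the gaps were no wider than the spread between the B5 libraries. S100A16 and S100P were lower in shM3. S100A16, a widely expressed member, was at 235 and 204 FPKM in shM3 and 272 and 268 FPKM in B5 (log2 fold change -0.30 ± 0.08 SE, adjusted p = 0.028). S100P, first found in placenta and a partner of ezrin, was at 7.86 and 7.52 FPKM in shM3 and 10.3 and 12.8 FPKM in B5 (log2 fold change -0.52 ± 0.12 SE, adjusted p = 0.013). S100A13, which helps release FGF1 and IL1A from cells, did not pass: it was at 112 and 128 FPKM in shM3 and at 39.2 and 109.5 FPKM in B5 (95% interval of the log2 fold change -0.25 to 1.97).

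These 4 smaller calls rested on single libraries. Without B5 replicate 2, S100A10, S100A16 and S100P missed the threshold (adjusted p = 0.0606, 0.0636 and 0.0502), and S100A13 passed it, higher in shM3 (log2 fold change 1.59, adjusted p = 0.0241). Without B5 replicate 1, S100A16 missed it (0.0728 adjusted p). Without shM3 replicate 1, S100A10, S100A11 and S100P missed it (0.142, 0.0846 and 0.0503 adjusted p), and without shM3 replicate 2 all 4 did (0.0532 for S100A10, 0.0535 for S100A11, 0.157 for S100A16 and 0.0664 for S100P). A group left with 1 library takes its spread from the other groups.

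**Figure D1:**
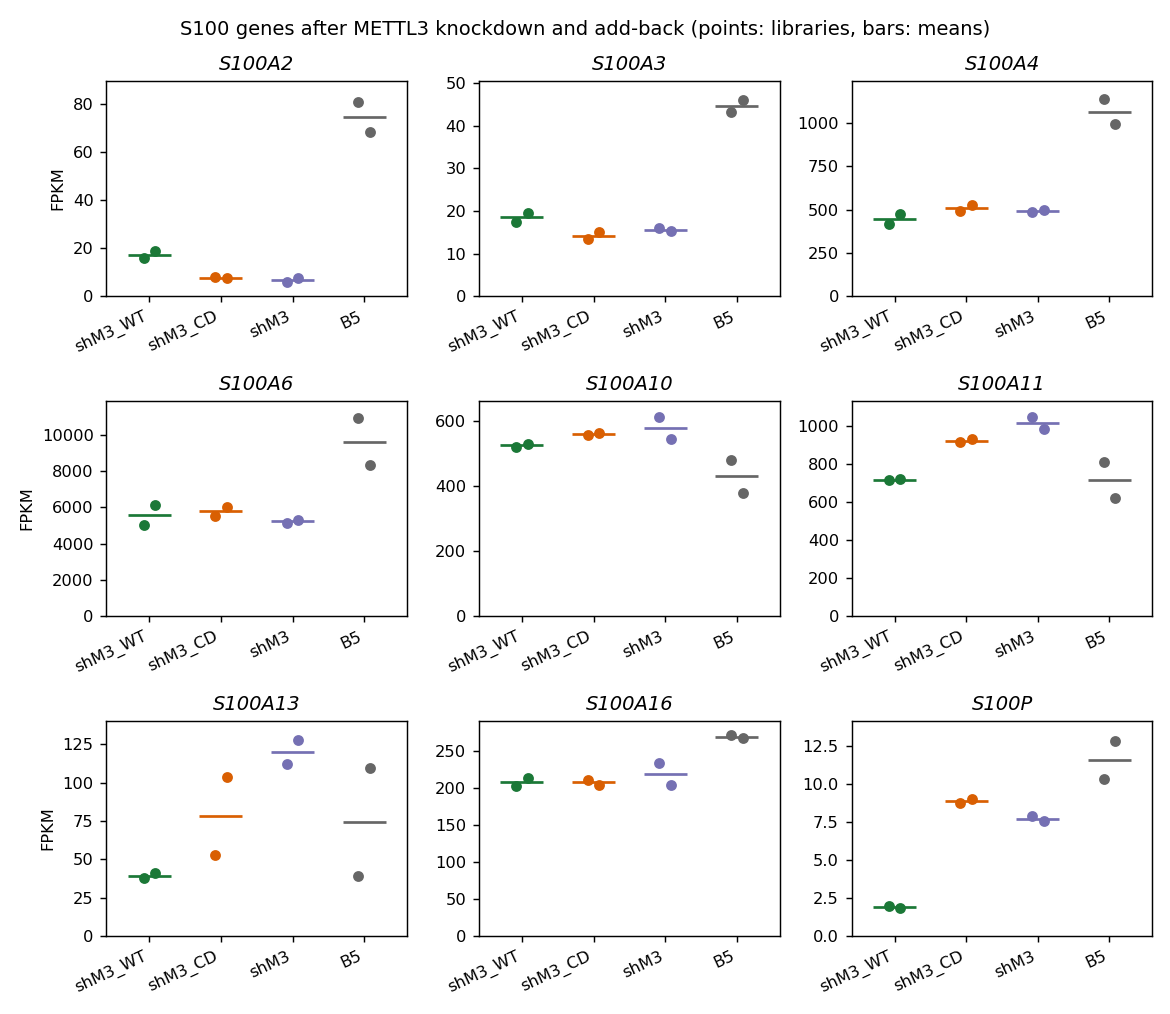
FPKM of the 9 tested S100 genes in shM3_WT, shM3_CD, shM3 and B5 cells, one panel a gene, with points for libraries and bars for the means of 2. S100A2, S100A3, S100A4 and S100A6 sit high in B5 and low in the other 3 groups, S100P is low in shM3_WT, and the S100A13 libraries of B5 and shM3_CD lie far apart.

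S100A5, a neighbour of S100A6 known from olfactory neurons, was not among the 10 and went the same way, at 4.03 and 3.36 FPKM in shM3 and 17.8 and 18.5 FPKM in B5 (log2 fold change -2.03 ± 0.13 SE, adjusted p = 8.5e-05). In a window of 200 kb on either side of the S100 genes on chromosome 1, set after the values were seen, 15 other genes were tested, S100A5 among them. Of these, 5 were lower and 1 higher in shM3, with a median log2 fold change of -0.29, a share near the 37.8% of all genes called. The others lower were AL162258.1, which overlaps S100A13, and SNAPIN, INTS3 and GATAD2B beyond it, and TDRKH near S100A10 was higher (log2 fold change 1.16, adjusted p = 0.00064). In GATAD2B, the farthest of these on the S100A13 side, the log2 fold change was -0.84 (adjusted p = 0.0012). Under JQ1, described below, 14 neighbours were tested of which 2 were higher (TDRKH and BX470102.1) and 1 lower (S100A5), a smaller share than the 35.1% of all genes.

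**Figure D2:**
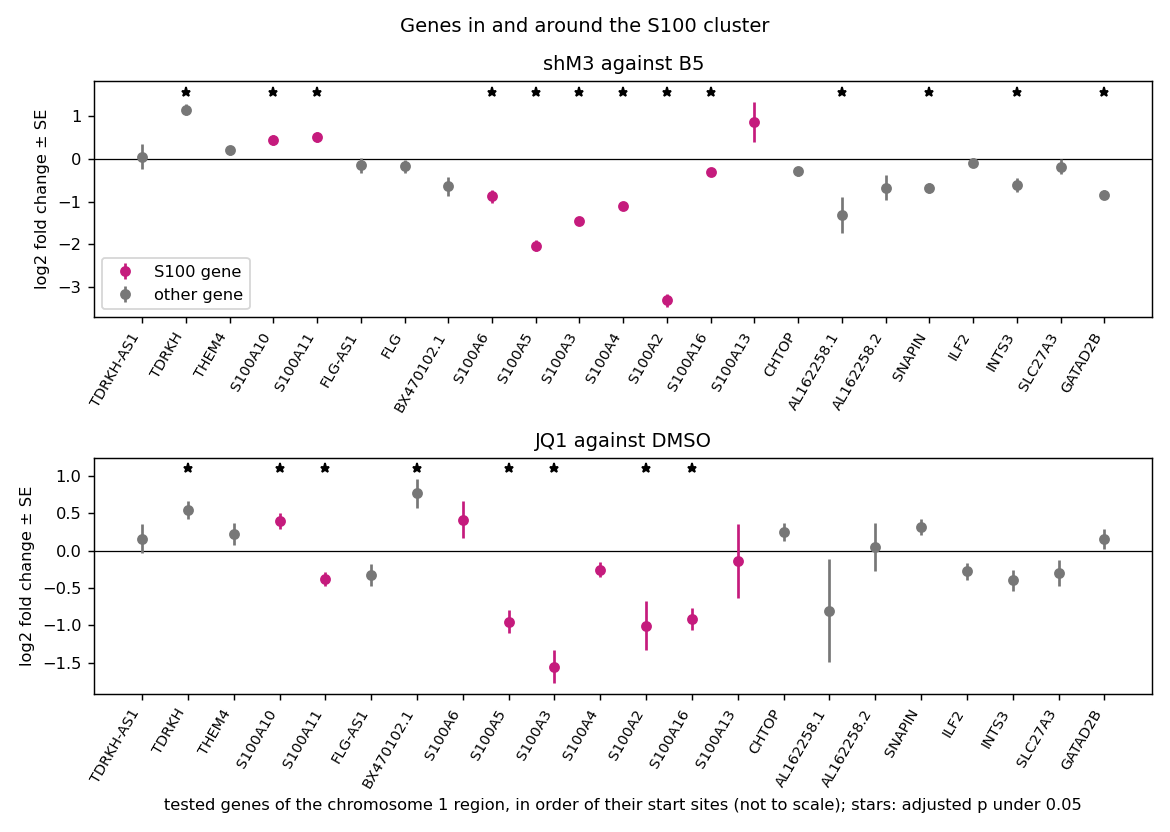
Log2 fold changes with their standard errors (vertical axis) for the tested genes in and around the S100 genes of chromosome 1, in the order of their start sites and not to scale, for shM3 against B5 above and JQ1 against DMSO below. From S100A6 to S100A16 all 6 tested S100 genes are lower in shM3, while S100A10 and S100A11 are higher. Under JQ1 S100A11, S100A5, S100A3, S100A2 and S100A16 are called lower and S100A10 is called higher.

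The partners of the S100 proteins were read from lists of annexins, binding partners, receptors and other EF-hand genes. In shM3 against B5, where 37.8% of all genes passed, 2 of 12 annexins tested were higher and 4 lower (median log2 fold change 0.03). ANXA3 was at 209 ± 1.6 FPKM in shM3 and 97.4 ± 9.0 FPKM in B5 (log2 fold change 1.09, adjusted p = 0.0002), and ANXA11 at 33.8 ± 2.8 FPKM in shM3 and 50.8 ± 1.6 FPKM in B5 (log2 fold change -0.58, adjusted p = 0.0019). ANXA8 and its near copy ANXA8L1, between which reads may be split, were lower (log2 fold changes -1.04 and -0.76, adjusted p = 0.00055 and 0.0024). Of 14 binding partners, 1 was higher and 5 lower (median -0.23), a share near that of all genes. PLAT was at 191 ± 6.0 FPKM in shM3 and 312 ± 28 FPKM in B5 (log2 fold change -0.70, adjusted p = 0.00082), and CACYBP, the partner of S100A6, at 56.8 ± 5.6 FPKM in shM3 and 91.2 ± 13 FPKM in B5 (log2 fold change -0.67, adjusted p = 0.0063). The interleukin IL1A was higher (log2 fold change 0.93, adjusted p = 0.0011), and the myosin MYH10 lower (log2 fold change -0.57, adjusted p = 0.0061). Of 6 receptors tested, 4 were lower and none higher (median -0.45): basigin (BSG) at 126 ± 0.60 FPKM in shM3 and 253 ± 1.6 FPKM in B5 (log2 fold change -0.997, adjusted p = 0.00023), then TLR4, ALCAM and NPTN (log2 fold changes -0.65, -0.52 and -0.32, adjusted p = 0.0034, 0.0085 and 0.042), the call of NPTN being lost without single libraries (adjusted p up to 0.2). In the same libraries the summed FPKM of 6 mesenchymal markers was 1200.4 to 1222 in shM3 and 1657 to 1715 in B5, that of 9 luminal markers 1037 to 1073 in shM3 and 724 to 892 in B5, and that of 6 haematopoietic markers 5.38 to 5.49 in shM3 and 12.9 to 22.9 in B5 (mostly CD14, with CD3E at 0 in all). Of 5 luminal markers tested, 1 was called higher and none lower (median log2 fold change 0.02). Of 5 mesenchymal markers tested, 4 were called lower and none higher. The part of these shifts in the S100 values was not tested.

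The add-back groups asked which S100 genes moved when METTL3 was added to shM3 cells. METTL3 was at 270.5 to 312 FPKM in these groups, above the 20.1 and 23.8 FPKM of B5. With METTL3-WT, 4 of 9 S100 genes passed against shM3, 1 higher and 3 lower, where 39.4% of all genes passed, 16.7% higher and 22.7% lower. S100A2 was at 15.8 and 18.7 FPKM in shM3_WT and 5.82 and 7.53 FPKM in shM3, 2.59-fold higher (log2 fold change 1.25 ± 0.14 SE, adjusted p = 0.00074). Both shM3_WT libraries were above both shM3 libraries, and both remained far below the 80.9 and 68.7 FPKM of B5 (log2 fold change of shM3_WT against B5 -2.05 ± 0.14 SE, adjusted p = 0.00022). S100P went down: it was at 1.95 and 1.80 FPKM in shM3_WT and 7.86 and 7.52 FPKM in shM3, 4.10-fold lower (log2 fold change -1.60 ± 0.12 SE, adjusted p = 0.00013). S100A11 was at 716 and 722 FPKM in shM3_WT and 1049.7 and 987 FPKM in shM3 (log2 fold change -0.50 ± 0.12 SE, adjusted p = 0.017), and S100A13 at 37.8 and 40.9 FPKM in shM3_WT and 112 and 128 FPKM in shM3 (log2 fold change -1.59 ± 0.47 SE, adjusted p = 0.034). The calls of S100A11 and S100A13 were lost without any one of the 4 libraries compared: for S100A11 the adjusted p was 0.0897 without shM3 replicate 1, 0.0564 without shM3 replicate 2, 0.0683 without shM3_WT replicate 1 and 0.0645 without shM3_WT replicate 2, and for S100A13 it was 0.0952, 0.128, 0.12 and 0.104 in that order.

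S100A6, S100A4, S100A3 and S100A16, lower in shM3 than in B5, did not pass in shM3_WT against shM3. S100A6 was at 5021 and 6135 FPKM in shM3_WT and 5153 and 5299 FPKM in shM3, so that the groups overlapped (95% interval of the log2 fold change -0.28 to 0.45). S100A4 was at 419 and 476 FPKM in shM3_WT and 487 and 499 FPKM in shM3 (interval -0.38 to 0.09), S100A16 at 203 and 214 FPKM in shM3_WT and 235 and 204 FPKM in shM3 (interval -0.27 to 0.13), and S100A10 at 520.2 and 528 FPKM in shM3_WT and 612 and 544 FPKM in shM3 (interval -0.42 to 0.15). S100A3, at 17.5 and 19.6 FPKM in shM3_WT and 15.9 and 15.3 FPKM in shM3, missed the threshold (log2 fold change 0.23, adjusted p = 0.09) and passed it under TMM factors and under equal medians (0.33 and 0.32, adjusted p = 0.026 and 0.0319), scalings that also lift the share of higher genes among the calls (52.8% and 51.8%, against 42.5%). Relative to B5, 6 of 9 S100 genes were lower in shM3_WT and none higher, with 30.0% of all genes passing, 18.2% lower. S100P was the lowest of them in shM3_WT, 6.16-fold below B5 (log2 fold change -2.12 ± 0.12 SE, adjusted p = 9.2e-05). The shM3_WT cells thus held S100P at a level below both shM3 and B5. Among these calls, those of S100A6 and S100A16 were lost without shM3_WT replicate 1 (0.0539 and 0.0807 adjusted p), and S100A10 and S100A13 passed without B5 replicate 1 (log2 fold changes 0.48 and -1.45, adjusted p = 0.0129 and 0.0352).

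With METTL3-CD none of the 9 S100 genes passed against shM3 under limma, where 11.4% of all genes did, and none had an unadjusted p under 0.05, where 28.1% of all genes did. S100A2 was at 7.91 and 7.67 FPKM in shM3_CD and 5.82 and 7.53 FPKM in shM3 (95% interval of the log2 fold change -0.13 to 0.54). S100P was at 8.74 and 8.99 FPKM in shM3_CD and 7.86 and 7.52 FPKM in shM3 (interval -0.10 to 0.47), and S100A6 at 5514 and 6047 FPKM in shM3_CD and 5153 and 5299 FPKM in shM3 (interval -0.22 to 0.51). Against B5, shM3_CD had 5 S100 genes lower and 1 higher, with 29.9% of all genes passing. The lower ones were S100A2 (9.60-fold, adjusted p = 6e-05), S100A3 (3.14-fold, adjusted p = 0.00016), S100A4 (2.09-fold, adjusted p = 0.00062), S100A6 (1.67-fold, adjusted p = 0.013) and S100A16 (1.30-fold, adjusted p = 0.016), and S100A10 was higher (log2 fold change 0.39, adjusted p = 0.046). Leaving out shM3_CD replicate 1 or 2 ended the calls of S100A6 (0.0782 and 0.0501 adjusted p), S100A16 (0.0613 and 0.0858) and S100A10 (0.139 and 0.156). The call of S100A10 was also lost without B5 replicate 2 (0.114), shM3 replicate 1 or 2 (0.0633 and 0.0634) and shM3_WT replicate 1 or 2 (0.0693 for each), and without B5 replicate 1 S100A11 and S100P passed (log2 fold changes 0.57 and -0.48, adjusted p = 0.0037 and 0.0293).

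Between the add-backs themselves, shM3_WT against shM3_CD, the test passed for 3 of 9 S100 genes, with 25.9% of all genes passing, 10.2% higher and 15.7% lower. S100A2 was at 15.8 and 18.7 FPKM in shM3_WT and 7.91 and 7.67 FPKM in shM3_CD, 2.21-fold higher (log2 fold change 1.049 ± 0.14 SE, adjusted p = 0.0034). S100P was at 1.95 and 1.80 FPKM in shM3_WT and 8.74 and 8.99 FPKM in shM3_CD, 4.73-fold lower (log2 fold change -1.78 ± 0.12 SE, adjusted p = 0.00045). S100A3 was at 17.5 and 19.6 FPKM in shM3_WT and 13.5 and 15.0 FPKM in shM3_CD (log2 fold change 0.36 ± 0.09 SE, adjusted p = 0.031). The share of higher genes among all calls of this comparison was 39.5%, and 56.8% under TMM factors. In shM3_WT against B5 it was 39.4%, and 54.3% under TMM factors. The call of S100A3 was lost without shM3 replicate 1 or 2 (0.0521 and 0.052 adjusted p), shM3_WT replicate 1 or 2 (0.0534 and 0.148) and shM3_CD replicate 1 or 2 (0.15 and 0.0638), and S100A11 passed without B5 replicate 1 or 2 (log2 fold change -0.36, adjusted p = 0.00653 and 0.00652).

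Among the partners, METTL3-WT against shM3, in which 39.4% of all genes passed, had 3 of 12 annexins higher and 3 lower (median log2 fold change 0.00045, against -0.08 over all genes). ANXA8 was at 7.62 ± 0.52 FPKM in shM3_WT and 2.01 ± 0.19 FPKM in shM3, ANXA3 at 103 ± 2.6 FPKM in shM3_WT and 209 ± 1.6 FPKM in shM3, and ANXA1 at 300.0 ± 1.6 FPKM in shM3_WT and 423 ± 8.9 FPKM in shM3 (log2 fold changes 1.52, -1.01 and -0.49, adjusted p = 0.00011, 0.00024 and 0.0012). Of 14 binding partners 5 were higher and 2 lower (median 0.16), with CACYBP at 114 ± 7.9 FPKM in shM3_WT and 56.8 ± 5.6 FPKM in shM3, and PLAT at 301 ± 8.8 FPKM in shM3_WT and 191 ± 6.0 FPKM in shM3 (log2 fold changes 1.00 and 0.66, adjusted p = 0.0011 and 0.001). Of 6 receptors 2 were higher, a share below that of all genes, BSG and ALCAM (log2 fold changes 0.64 and 0.32, adjusted p = 0.0012 and 0.048), the call of ALCAM being lost without single libraries (adjusted p up to 0.24). The mesenchymal marker sum was 1890.3 to 2029 FPKM in shM3_WT, 1067 to 1200.0 FPKM in shM3_CD and 1200.4 to 1222 FPKM in shM3. The luminal marker sum was 645 to 713 FPKM in shM3_WT, 763 to 768 FPKM in shM3_CD and 1037 to 1073 FPKM in shM3, and 4 of the 5 luminal markers tested were called lower in shM3_WT than in shM3. The part of both in the S100 values was not tested.

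Since METTL3 belongs to the m6A writer, the letters GGACT, the most common form of the m6A motif, were counted on the sense strand of the longest coding transcript of each gene. S100A3 held 4 (4.67 per kb), S100P 3 (2.35 per kb), S100A6 and S100A2 2 each (2.97 and 2.00 per kb), S100A14 2 (1.64 per kb), S100A4, S100A10, S100A13 and S100A16 1 each and S100A11 none. Over 11961 protein-coding genes tested in the knockdown experiment the median was 0.927 per kb and 7.98% held none. S100 transcripts are short, at 594 to 1279 bases against a median of 3363 bases, so that each occurrence weighs heavily. No measure of methylation was analysed here, and the letters do not show that a site is used.

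The DMSO experiment asked how the family responded to JQ1, Molib and I-BET151. With JQ1, 5 of 8 S100 genes tested passed against DMSO, 4 lower and 1 higher, where 35.1% of all 14936 genes passed, 20.6% lower and 14.5% higher. With Molib, 5 of 8 passed, also 4 lower and 1 higher, where 35.3% of all genes did, 20.5% lower and 14.8% higher. Both comparisons use the same DMSO libraries. The median log2 fold change of the S100 genes was -0.31 with JQ1 and -0.31 with Molib, against -0.04 and -0.03 over all genes.

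S100A3 was at 4.14 and 3.73 FPKM with Molib and 3.90 and 5.87 FPKM with JQ1, against 15.9 and 16.2 FPKM with DMSO. Every treated library was below 6 FPKM and the DMSO libraries were nearly equal. S100A3 was 4.08-fold lower with Molib (log2 fold change -1.79 ± 0.22 SE, adjusted p = 0.0011) and 3.29-fold lower with JQ1 (-1.56 ± 0.22 SE, adjusted p = 0.0021), and both calls held when any one library was left out. S100A16 was at 112 and 149 FPKM with Molib and 111 and 94.6 FPKM with JQ1, against 186 and 202 FPKM with DMSO. The log2 fold changes were -0.58 ± 0.15 SE with Molib (adjusted p = 0.021) and -0.92 ± 0.15 SE with JQ1 (adjusted p = 0.0037). S100A2 was at 6.28 and 7.14 FPKM with Molib and 6.64 and 8.23 FPKM with JQ1, against 14.4 and 17.5 FPKM with DMSO (log2 fold changes -1.13 ± 0.33 SE and -1.005 ± 0.33 SE, adjusted p = 0.032 and 0.048). For these 3 genes no treated library reached the lower DMSO library, and the groups did not overlap in 73.1% of all genes with Molib and 73.8% with JQ1.

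S100A10 was the one S100 gene that passed as higher under both compounds. It was at 613 and 605 FPKM with Molib and 575 and 582 FPKM with JQ1, against 432 and 446 FPKM with DMSO (log2 fold changes 0.47 ± 0.10 SE and 0.40 ± 0.10 SE, adjusted p = 0.011 and 0.022). S100A4 was at 224 and 229 FPKM with Molib and 253 and 244 FPKM with JQ1, against 278 and 315 FPKM with DMSO, and passed with Molib (log2 fold change -0.38 ± 0.10 SE, adjusted p = 0.026) but not with JQ1 (-0.25 ± 0.10 SE, adjusted p = 0.1). S100A11 was at 535 and 553 FPKM with Molib and 496 and 495 FPKM with JQ1, against 622 and 663 FPKM with DMSO, and passed with JQ1 (log2 fold change -0.37 ± 0.09 SE, adjusted p = 0.02) but not with Molib (-0.24 ± 0.09 SE, adjusted p = 0.086). The difference between the compounds in S100A4 and S100A11 is tested below and did not pass. S100A6 was at 6176 and 6144 FPKM with Molib and 6272 and 6374 FPKM with JQ1, against 4195 and 5341 FPKM with DMSO. Every Molib and JQ1 library was above both DMSO libraries, but the limma test with all libraries did not pass (log2 fold changes 0.38 and 0.42, adjusted p = 0.27 and 0.23). That test takes its spread from all groups. For S100A6 the DMSO libraries lay apart, and so did those labelled I-BET151 (6609 and 3726 FPKM). S100A13 did not pass, with JQ1 libraries at 113 and 74.0 FPKM, Molib libraries at 119.6 and 129 FPKM and DMSO libraries at 103 and 98.4 FPKM.

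Several of these calls needed all libraries. With JQ1, the calls of S100A2, S100A10 and S100A11 were lost without DMSO replicate 1 (0.107, 0.11 and 0.064 adjusted p), DMSO replicate 2 (0.193, 0.0856 and 0.12), JQ1 library a (0.187, 0.0978 and 0.0999) or JQ1 library b (0.103, 0.107 and 0.1), and that of S100A2 also without Molib replicate 1 or 2 (0.0693 and 0.0694). With Molib, the calls of S100A2, S100A10 and S100A16 were lost without DMSO replicate 1 (0.0818, 0.0705 and 0.0661), without DMSO replicate 2 (0.145, 0.0548 and 0.112) and without Molib replicate 1 (0.126, 0.0666 and 0.11). Those of S100A2 and S100A10 were lost without Molib replicate 2 (0.0903 and 0.0611), and that of S100A4 without DMSO replicate 2 (0.156), Molib replicate 1 or 2 (0.118 and 0.0995) and JQ1 library a or b (0.0513 and 0.0512). Without either library labelled I-BET151, S100A6 passed with JQ1 (log2 fold change 0.42, adjusted p = 0.0245 in both cases) and with Molib (0.38, adjusted p = 0.033 in both cases). S100A4 then passed with JQ1 (0.0346 without replicate 1 and 0.0348 without replicate 2) and S100A11 with Molib (0.0136 and 0.014).

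**Figure D3:**
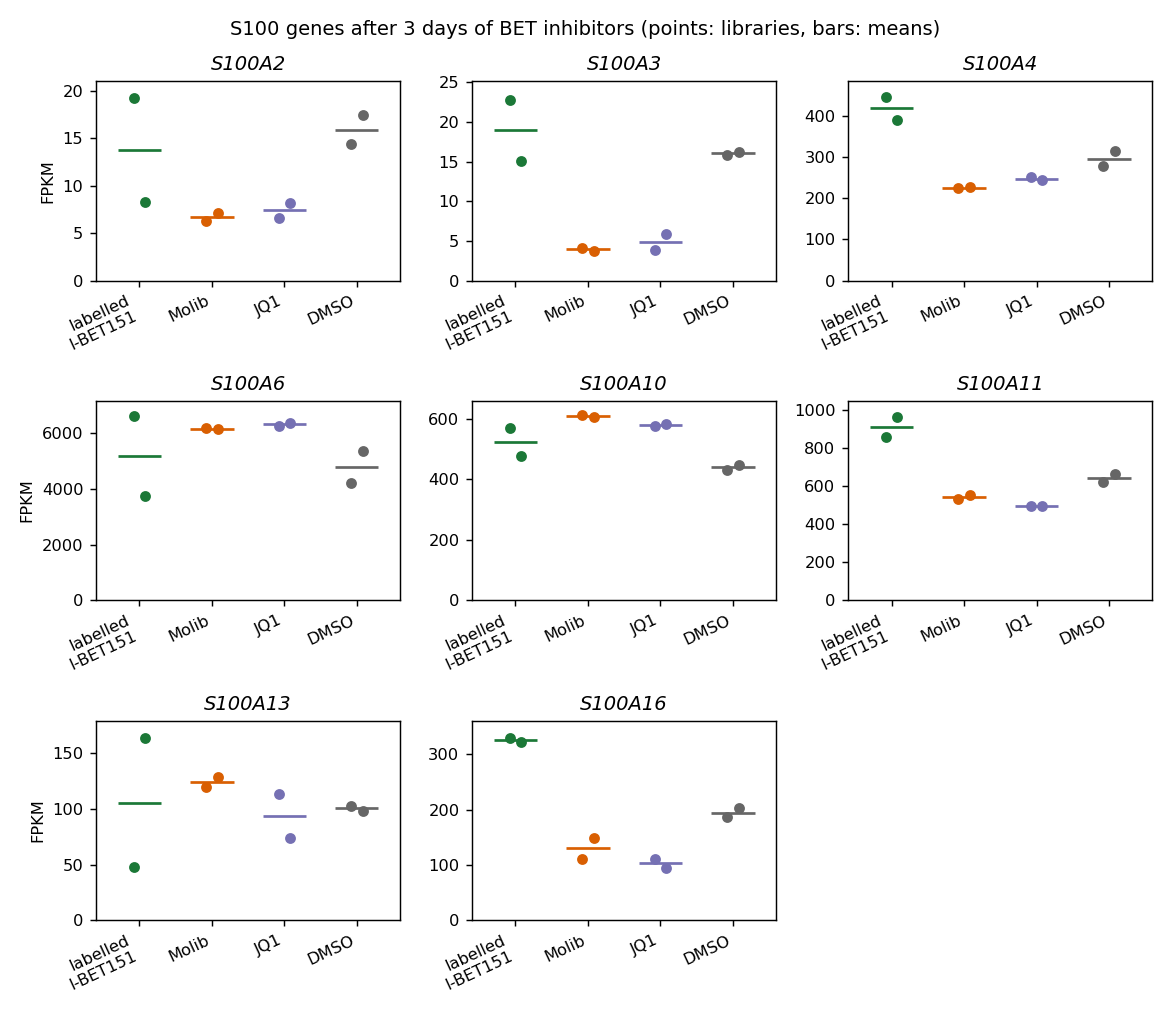
FPKM of the 8 tested S100 genes in the libraries labelled I-BET151 and those given Molib, JQ1 or DMSO for 3 days, one panel a gene, with points for libraries and bars for the means of 2. S100A3 and S100A2 sit low with Molib and JQ1, S100A10 sits high with both, and the libraries labelled I-BET151 lie apart from each other in S100A6, S100A2 and S100A13.

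Molib and JQ1 were given at the same dose and time and could be compared directly, one of 3 pairs of compounds. None of the 8 S100 genes differed between Molib and JQ1 under limma, nor did any of the 14936 genes (1227 genes, 8.22%, had an unadjusted p under 0.05, and none of the S100 genes). The intervals of the difference, Molib minus JQ1 on the log2 scale, were -0.75 to 0.28 for S100A3, -0.89 to 0.64 for S100A2, -0.38 to 0.11 for S100A4, -0.09 to 0.35 for S100A11, -0.17 to 0.31 for S100A10, -0.62 to 0.55 for S100A6 and, the widest, -0.72 to 1.59 for S100A13. S100A16 came nearest to a difference, at 112 and 149 FPKM with Molib and 111 and 94.6 FPKM with JQ1 (log2 difference 0.33, interval -0.02 to 0.68). Its adjusted p under limma was 0.62 over the genes of this pair alone and 0.15 over all genes of the 3 pairs. Each interval leaves room for a difference as large as its farther bound, and they do not show that the compounds act alike.

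The libraries labelled I-BET151 gave another picture. Against DMSO, 3 of 8 S100 genes passed, all higher, where 28.0% of all genes passed, 13.9% higher and 14.1% lower. S100A16 was at 329 and 323 FPKM in the libraries labelled I-BET151, against 186 and 202 FPKM with DMSO (log2 fold change 0.75 ± 0.15 SE, adjusted p = 0.011). S100A11 was at 862 and 967 FPKM, against 622 and 663 FPKM with DMSO (0.51 ± 0.09 SE, adjusted p = 0.0079), and S100A4 at 447 and 392 FPKM, against 278 and 315 FPKM with DMSO (0.50 ± 0.10 SE, adjusted p = 0.013). S100A5 was higher too (log2 fold change 0.63, adjusted p = 0.021). The libraries of this group differed from each other: S100A6 was at 6609 and 3726 FPKM, S100A2 at 19.2 and 8.31 FPKM, S100A3 at 22.8 and 15.1 FPKM and S100A13 at 47.5 and 163 FPKM. Without replicate 2 of this label, S100A6, S100A10 and S100A13 also passed against DMSO (log2 fold changes 0.48, 0.37 and -1.07, adjusted p = 0.0451, 0.00772 and 0.0239), and without replicate 1 S100A2 passed, lower (-0.86, adjusted p = 0.0185). Without DMSO replicate 1 all 3 calls were lost (0.0707 for S100A16, 0.063 for S100A11 and 0.089 for S100A4). The mesenchymal marker sum was 1172 to 1316 FPKM in the libraries labelled I-BET151 and 1978 to 2002 FPKM with DMSO, with 2 of 5 markers called higher and 3 lower, and the luminal marker sum 737 to 741 FPKM in the libraries labelled I-BET151 and 598 to 601 FPKM with DMSO. The part of these in the S100 values was not tested.

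The other pairs set the libraries labelled I-BET151 against JQ1 and against Molib at the same dose and time. In each pair 4 of 8 S100 genes were higher in the libraries labelled I-BET151 and none lower, where 44.6% of all genes passed against JQ1 (24.6% higher and 20.1% lower) and 43.5% against Molib (23.6% higher and 19.9% lower). S100A3, at 22.8 and 15.1 FPKM in the libraries labelled I-BET151, was 3.88-fold above JQ1 and 4.81-fold above Molib (adjusted p = 0.0012 and 0.00069 under limma over all genes of the 3 pairs). S100A16 was 3.18-fold and 2.50-fold higher (0.0003 and 0.00076 in the same adjustment), S100A11 1.85-fold and 1.68-fold (0.0006 and 0.0012) and S100A4 1.69-fold and 1.85-fold (0.0019 and 0.00093). S100A6 and S100A10 did not pass in either pair (log2 intervals -0.93 to 0.23 and -0.39 to 0.09 against JQ1). Without replicate 1 of this label both were lower, with log2 fold changes of -0.76 and -0.27 against JQ1 (adjusted p = 0.00619 and 0.0107) and -0.73 and -0.35 against Molib (0.00736 and 0.00483). Without replicate 2, S100A2 was higher in both pairs (1.27 and 1.39, adjusted p = 0.00315 and 0.00247). S100A13 turned with the library left out against JQ1: 0.83 without replicate 1 (adjusted p = 0.032) and -0.93 without replicate 2 (0.0223). Against Molib it was lower without replicate 2 (-1.36, adjusted p = 0.0064). Since HEXIM1 was lower in these libraries than with DMSO (log2 fold change -1.66, adjusted p = 0.0011), whether they are samples of I-BET151 treatment cannot be told from the files.

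**Figure D4:**
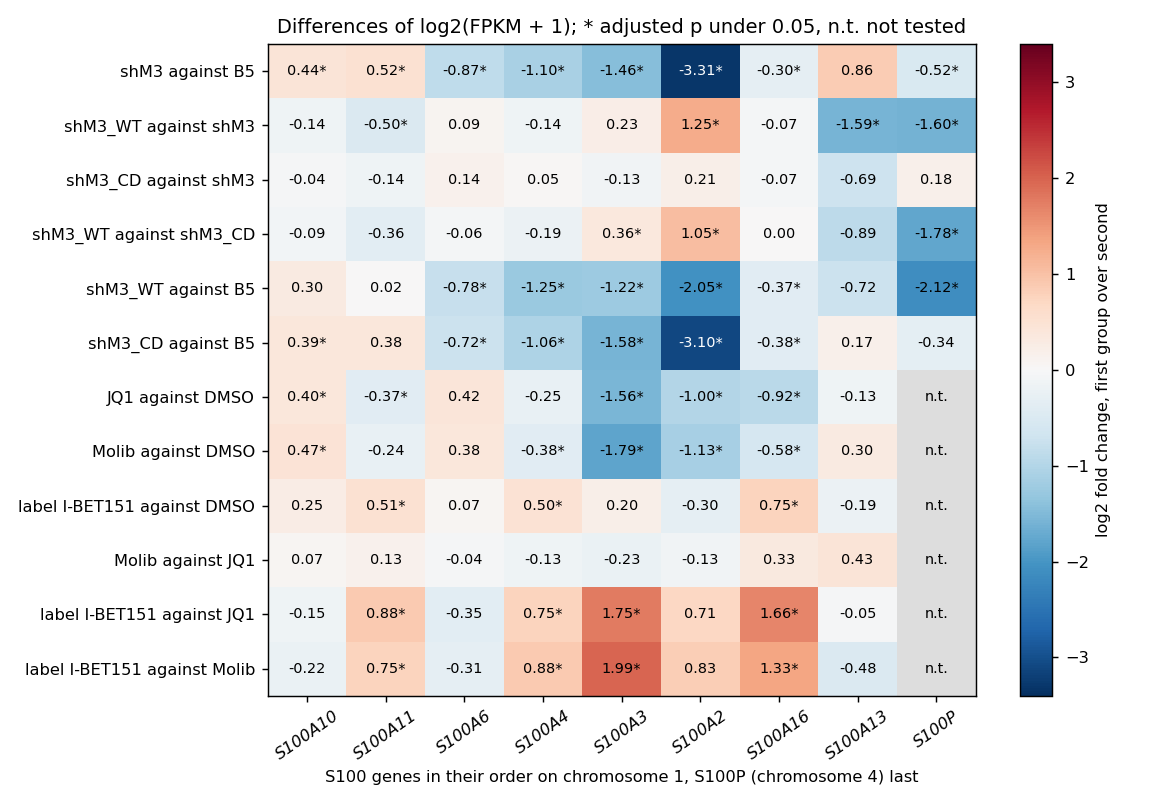
Log2 fold changes of log2(FPKM + 1), first group over second, for 9 S100 genes (columns, by position on chromosome 1 with S100P last) in 12 comparisons (rows), with a star where the adjusted p was under 0.05. The columns of S100A2, S100A3, S100A4 and S100A6 are blue in the 3 rows against B5, and the 3 rows of the libraries labelled I-BET151 hold higher values of S100A11, S100A4 and S100A16.

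Of the annexins, most changed under both compounds. With JQ1, 3 of 11 tested were higher and 6 lower (median log2 fold change -0.69), where 35.1% of all genes passed, and with Molib 4 were higher and 6 lower (median -0.58), where 35.3% did. ANXA10, ANXA3, ANXA11 and ANXA8 were lower under both: ANXA3 was at 25.5 ± 1.2 FPKM with Molib and 30.3 ± 1.4 FPKM with JQ1, against 65.2 ± 4.7 FPKM with DMSO (log2 fold changes -1.32 and -1.08, adjusted p = 0.00022 and 0.00049). ANXA2, the partner of S100A10, was higher under both, with log2 fold changes of 1.26 with Molib and 1.09 with JQ1 (adjusted p = 0.002 and 0.0037). In the libraries labelled I-BET151 it was not called (-0.24, adjusted p = 0.34). Of 12 binding partners, 4 were higher and 3 lower with JQ1 and 4 higher and 4 lower with Molib (medians 0.12 and 0.14). PLAT, which S100A10 binds, was at 801 ± 8.7 FPKM with Molib and 667 ± 33 FPKM with JQ1, against 243 ± 0.40 FPKM with DMSO (log2 fold changes 1.72 and 1.46, adjusted p = 3.1e-05 and 6.4e-05). IL1A, a cargo of the S100A13 route, was at 0.0871 ± 0.028 FPKM with Molib and 0.180 ± 0.039 FPKM with JQ1, against 3.85 ± 0.035 FPKM with DMSO (log2 fold changes -2.16 and -2.04, adjusted p = 0.00013 and 0.00017). MYH9, partner of S100A4, was higher (log2 fold changes 0.54 and 0.47, adjusted p = 0.0036 and 0.0068). Of 6 receptors, 2 were higher and 2 lower with JQ1 and 1 higher and 2 lower with Molib: SDC1 was at 5.59 ± 1.7 FPKM with Molib and 6.78 ± 1.9 FPKM with JQ1, against 21.8 ± 5.6 FPKM with DMSO (adjusted p = 0.0021 and 0.004), and ALCAM was higher (0.77 and 1.09, adjusted p = 0.015 and 0.004), the call with Molib being lost without any one of the 4 libraries compared (up to 0.072). The call of MYH9 with JQ1 was lost without JQ1 library a (adjusted p = 0.055). The summed FPKM of the luminal markers, mostly keratins, was 1545 to 1598 with Molib, 1630.3 to 1642 with JQ1 and 598 to 601 with DMSO. Of the 5 luminal markers tested, 3 were called higher and 2 lower with each compound. Their part in the S100 values was not tested.

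The CTRL experiment repeated JQ1 with libraries of another make-up, in which the JQ1 and CTRL libraries were rich in RN7SL1 and had many genes at 0. None of the 9 S100 genes passed in JQ1 against CTRL under limma, nor did any of the 13261 genes (2048 had an unadjusted p under 0.05, and so did 6 of the 9 S100 genes, where 15.4% of all genes did). S100A6 was at 12248 and 10103 FPKM with JQ1 and 5275 and 6662 FPKM in CTRL (log2 fold change 0.91, 95% interval 0.37 to 1.45, adjusted p = 0.15). S100A4 was at 926 and 896 FPKM with JQ1 and 483 and 559.6 FPKM in CTRL (0.81, interval 0.42 to 1.19, adjusted p = 0.11), and S100A10 at 819 and 1026 FPKM with JQ1 and 645 and 658 FPKM in CTRL (0.49, interval 0.03 to 0.95, adjusted p = 0.3). S100A3 was at 19.2 and 7.84 FPKM with JQ1 and 30.3 and 57.4 FPKM in CTRL (-1.68, interval -3.15 to -0.20, adjusted p = 0.27), and S100A16 at 99.7 and 50.6 FPKM with JQ1 and 127 and 238 FPKM in CTRL (-1.28, interval -2.51 to -0.06, adjusted p = 0.3). For each of these 5 genes the JQ1 libraries lay wholly on one side of the CTRL libraries, as for 33.7% of all genes. S100P was listed at 0 in both JQ1 libraries and at 33.1 and 9.98 FPKM in CTRL, and S100A5 at 0 in both and at 18.1 and 17.9 FPKM in CTRL. Without CTRL replicate 2 the call of S100P passed (adjusted p = 0.0415). With 3374 to 5301 genes at 0 in these libraries, a 0 may be a failed detection, and no fold is given.

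Set beside the JQ1 comparison of the DMSO experiment, which has other controls, S100A3, S100A11, S100A13 and S100A16 were lower and S100A6 and S100A10 higher in the values of both. S100A4 went opposite ways (log2 fold change -0.25 there and 0.81 here, neither of them called). So did S100A2, which was called lower there (-1.005) and had a value of 0.80 here, with JQ1 and CTRL libraries that overlap (95% interval -1.73 to 3.34). The tables were scaled separately, and the differences between the experiments were not tested.

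In the authors' deposited table, which goes with this experiment and gives a log2 fold change whose groups and direction are not named, S100A4 had a value of 0.81 (SE 0.18, adjusted p = 6.8e-05) and S100A6 one of 0.94 (SE 0.21, adjusted p = 0.00011). S100A10 had 0.58 (adjusted p = 0.0049), S100A16 -1.06 (adjusted p = 0.049) and S100A13 -1.59 (adjusted p = 0.022) in the authors' deposited table, while S100A3, S100A11 and S100A2 were above an adjusted p of 0.05 there. The authors' deposited table gave S100P a log2 fold change of -10.1 and S100A5 one of -11.1 (adjusted p = 2.2e-05 and 2.3e-07), values that depend on the libraries at 0. The signs of all genes named here were those of JQ1 against CTRL, in which S100A4 and S100A6 had 0.81 and 0.91. In MW_JQ1 against JQ1 these 2 genes had -0.32 and -0.54, while S100A13 and S100A2 kept the same sign in both comparisons.

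MW_JQ1 against JQ1 had 2 of 9 S100 genes passing, 1 higher and 1 lower, where 15.2% of all genes passed, 13.5% higher and 1.62% lower, and the median of all genes was 0.75 on the log2 scale. S100P was at 8.85 and 9.38 FPKM in MW_JQ1 and listed at 0 in both JQ1 libraries (adjusted p = 0.048). S100A10 was at 551 and 483 FPKM in MW_JQ1 and 819 and 1026 FPKM in JQ1 (log2 fold change -0.83 ± 0.18 SE, adjusted p = 0.042). S100A6 was at 7206 and 8153 FPKM in MW_JQ1 and 12248 and 10103 FPKM in JQ1 (interval -1.08 to 0.00, adjusted p = 0.18), and S100A16 at 152 and 203 FPKM in MW_JQ1 and 99.7 and 50.6 FPKM in JQ1 (interval 0.07 to 2.52, adjusted p = 0.16). Both calls were lost without JQ1 replicate 2 (0.115 for S100P and 0.0962 for S100A10) and without MW_JQ1 replicate 1 (0.818 and 0.66) or 2 (0.85 and 0.825). That of S100P was also lost without JQ1 replicate 1 (0.0843), and that of S100A10 without CTRL replicate 1 or 2 (0.0518 and 0.0523). The luminal marker sum was 1504 to 1562 FPKM in MW_JQ1, 1188 to 1301 FPKM in JQ1 and 558 to 584 FPKM in CTRL, and its part was not tested. None of the 5 luminal markers tested was called between MW_JQ1 and JQ1. MW_JQ1 and JQ1 libraries also differ in RN7SL1 and in genes at 0, so that treatment group and library make-up cannot be told apart.

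**Figure D5:**
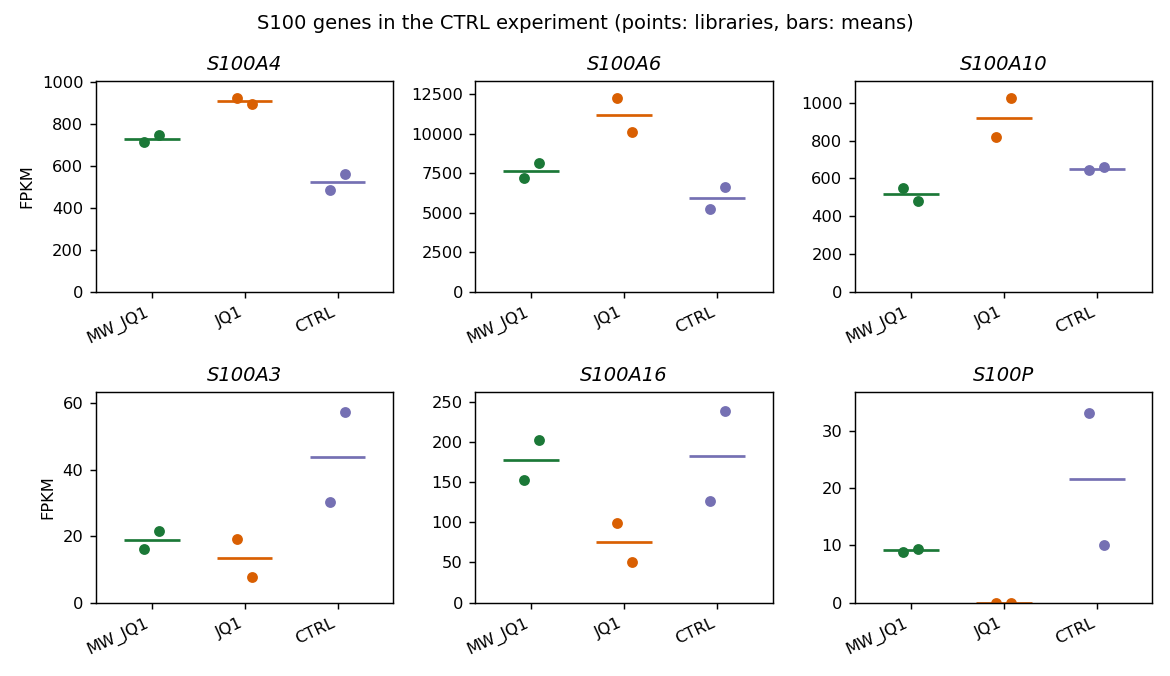
FPKM of 6 S100 genes in the MW_JQ1, JQ1 and CTRL libraries of the CTRL experiment, with points for libraries and bars for the means of 2. S100A4, S100A6 and S100A10 are highest with JQ1, S100A3 is highest in CTRL, and S100P is at 0 in both JQ1 libraries.

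The members differed from each other in how they moved over the 8 groups of the knockdown and DMSO experiments. Their likeness was measured as the root mean square difference of group means on the log2 scale, centred within each experiment, as a description. The closest pair was S100A11 and S100A16 (0.32), then S100A10 and S100A11 (0.33) and S100A4 and S100A16 (0.34). The farthest was S100A2 and S100A13 (1.22). S100A3 and S100A4, which share annotated sequence, were 0.46 apart. Among 8688 genes, those most like S100A2 were PRNP, VIPR1 and CCN3 (0.37, 0.40 and 0.45), and those most like S100A3 were CSF1, MCM5 and TIMP3 (0.25 each). S100A4 was most like SRPX, FZD8 and IRF1 (0.13, 0.15 and 0.15), S100A13 most like PRKCZ, HDAC5 and KLF6 (0.13, 0.14 and 0.15), S100A16 most like CDCP1, ATF6B and GSTO1 (0.10, 0.11 and 0.11) and S100P most like STING1, LTBP3 and MBNL2 (0.21, 0.25 and 0.27). With 8 groups, close patterns are easily found among so many genes, and the distances are given as values only.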

How the data were processed

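RNA of MDA-MB-231 cells was sequenced in 22 libraries, in 11 groups of 2 and 3 tables. The authors deposited FPKM per gene and library, and the submitters' processing notes list hg38, Cufflinks 2.2.1, HISAT2 2.1.0 and CASAVA 1.4, with no role or order given. The labels' protocols give Trizol extraction and 2 kinds of library preparation, not tied to samples. The authors' deposited table for the CTRL experiment also holds a mean signal (baseMean), a log2 fold change with its standard error, and p-values, per the file headers, with the groups and direction not named. In the DMSO experiment the JQ1 columns are named for JQ1 in their headers, as are those of the CTRL experiment. Which of the 2 JQ1 pairs in the labels they belong to was settled by elimination. They could not be tied to single samples, so the letters a and b were given here. No column of other samples was left unused (0).

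The FPKM values were tested as log2(FPKM + 1) with limma 3.58.1 (R 4.3.3), fitting all groups of a table together with a trend in the prior variance and adjusting p by Benjamini-Hochberg over all genes with at least 1 FPKM in at least 2 libraries. Fold changes on this scale understate those of low genes, and folds given as such are ratios of mean FPKM. Intervals are at 95%. Each table was tested alone, in 14 comparisons. Python 3.11.15, pandas 2.3.3, numpy 2.4.6 and matplotlib 3.10.9 did the rest. The code was tested on simulated data. Depth is unknown, so no interval for counting error is given, and 2 libraries per group limit the precision. Gene positions are GENCODE 29 by gene ID, and promoters are RefSeq entries matched by symbol (10 of 10).

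The members and all lists were chosen with earlier results of these data known. Partner genes were named by a rule, the 4 of each list with the lowest adjusted p among those called, and ANXA2, outside it, was named after its values were seen. Some genes that these rules pick are not reported here. Pseudocounts of 0.1 and 5, no filter, a filter at 5 FPKM, TMM factors (trims of 30% and 5%), equal medians, only the 2 groups compared, the replicate number as a block and leaving out each library were tried. The labels do not say whether the replicate numbers pair samples.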

Additional observations from a re-analysis of the deposited data

Results flagged for a closer look

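S100A4 moved in opposite directions under JQ1 in the 2 experiments that used it. In the DMSO experiment its log2 fold change was -0.25, with 253 and 244 FPKM under JQ1 and 278 and 315 FPKM under DMSO. In the CTRL experiment it was 0.81, with 926 and 896 FPKM under JQ1 and 483 and 559.6 FPKM in CTRL. Every JQ1 library lay below every DMSO library in the one and above every CTRL library in the other, which is what drew attention to it. The groups did not overlap in 73.8% of all genes in the DMSO experiment and in 33.7% in the CTRL experiment. The JQ1 and CTRL libraries of the CTRL experiment were rich in RN7SL1 and had many genes at 0. Neither difference passed the limma test, but in JQ1 against CTRL none of the 13261 genes passed it. The authors' own test, whose groups are not named, gave S100A4 a log2 fold change of 0.81 (adjusted p = 6.8e-05). The difference between the experiments was not tested.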

How the results depend on the processing

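Of the values of single S100 genes under the alternatives, 1656 kept their direction and side of the threshold, 127 lost a call, 36 gained one and 41 changed sign. Of the counts and sums, 189 stayed and 50 moved. Without the filter on low values 4 S100 genes were called in shM3 against B5, 2 in shM3_WT against shM3, 2 in JQ1 against DMSO and 2 in Molib against DMSO. With only the 2 groups compared, 5 were called in shM3 against B5, 1 in the libraries labelled I-BET151 against DMSO and 1 in MW_JQ1 against JQ1. In MW_JQ1 against JQ1 there was also 1 call with a pseudocount of 0.1, 1 with a pseudocount of 5, 1 under TMM factors, and 0 with a filter at 5 FPKM or under equal medians. The cause of these shifts was not tested.

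With the replicate number as a block, 3 S100 genes were called in Molib against DMSO and 0 in MW_JQ1 against JQ1, and the counts of the other comparisons stayed within 1.5 times, with 8 in shM3 against B5. Same-numbered libraries did not deviate together over all genes (correlations of -0.12 to 0.04). A small shared effect would not be seen this way, and the labels do not say whether the numbers pair samples. The JQ1 libraries of the DMSO experiment could not be tied to a replicate number of the labels and had no such fit.

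With single libraries left out, the number of S100 genes called was 4 to 8 in shM3 against B5, 2 to 4 in shM3_WT against shM3, 2 to 4 in shM3_WT against shM3_CD, 4 to 8 in shM3_WT against B5 and 3 to 8 in shM3_CD against B5. It was 2 to 7 in JQ1 against DMSO, 1 to 7 in Molib against DMSO, 0 to 6 in the libraries labelled I-BET151 against DMSO, 4 to 7 for them against JQ1, 4 to 6 against Molib, 0 to 1 in JQ1 against CTRL and 0 to 1 in MW_JQ1 against JQ1.

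The summed S100 FPKM under TMM factors and under equal medians was 7583 and 7641 in shM3, 7895 and 7970 with Molib, 7994 and 8000 with JQ1 in the DMSO experiment, 8585 and 7108 in MW_JQ1 and 15202 and 16984 with JQ1 in the CTRL experiment.

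The values that changed sign were all uncalled as reported. Under TMM factors and under equal medians, S100A16 was 0.0293 and 0.0216 in shM3_WT against shM3, S100A10 was 0.017 and 0.0214 and S100A6 0.0544 and 0.0588 in shM3_WT against shM3_CD, and S100A11 was -0.255 and -0.683 in MW_JQ1 against JQ1. Under equal medians S100A3 and S100A2 were -0.152 and -0.0861 in MW_JQ1 against JQ1. With single libraries left out, the log2 fold changes that changed sign ranged as follows. In shM3_WT against shM3 S100A16 ranged from -0.17 to 0.0309 and S100A6 from -0.0575 to 0.231, and in shM3_CD against shM3 S100A16 ranged from -0.173 to 0.0281, S100A10 from -0.128 to 0.041 and S100A4 from -0.00769 to 0.0982. In shM3_WT against shM3_CD S100A6 ranged from -0.201 to 0.0874 and S100A16 from -0.036 to 0.0417. Against B5, S100A11 and S100A13 ranged from -0.175 to 0.21 and from -1.45 to 0.0054 in shM3_WT, and S100A13 from -0.56 to 0.9 in shM3_CD. S100A13 ranged from -0.438 to 0.168 in JQ1 against DMSO. In the libraries labelled I-BET151 against DMSO, S100A6 ranged from -0.345 to 0.481, S100A3 from -0.0823 to 0.48, S100A13 from -1.07 to 0.694 and S100A2 from -0.856 to 0.263. Against JQ1 they gave -0.931 to 0.829 for S100A13 and -0.763 to 0.0639 for S100A6, and against Molib -1.36 to 0.396 and -0.725 to 0.101. In Molib against JQ1 S100A3 ranged from -0.479 to 0.00929 and S100A2 from -0.262 to 0.0106, and in JQ1 against CTRL S100A2 from -0.437 to 2.04. In MW_JQ1 against JQ1 the ranges were -0.0267 to 0.182 for S100A11, -0.0413 to 1.15 for S100A3 and -1.05 to 0.466 for S100A13.

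Having 2 libraries a group and an unknown depth limits all comparisons.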

Other observations

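Other EF-hand genes share the calcium-binding motif of the S100 proteins. In shM3 against B5, 7 of 31 tested were higher and 11 lower (median log2 fold change -0.30), where 17.9% of all genes were higher and 19.9% lower. NUCB2, a nucleobindin, was at 11.3 ± 0.58 FPKM in shM3 and 40.1 ± 1.3 FPKM in B5 (log2 fold change -1.75, adjusted p = 3.4e-05 under limma), and the visinin-like gene HPCAL1 was lower (-0.89, adjusted p = 0.00031). EFHD2 and the myosin light chain MYL9 were higher (0.85 and 0.91, adjusted p = 0.00021 and 0.0011). In shM3_WT against shM3, 11 were higher and 5 lower (median 0.28), where 16.7% of all genes were higher and 22.7% lower. NUCB2 was at 27.6 ± 1.7 FPKM in shM3_WT and 11.3 ± 0.58 FPKM in shM3 (log2 fold change 1.22, adjusted p = 0.0001), CALU and EFHD2 were higher (1.36 and 0.76, adjusted p = 0.00043 and 0.00029) and CAPN1 was lower (-0.68, adjusted p = 0.00045).

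Under Molib and JQ1, 4 of 31 EF-hand genes were higher and 5 lower in each comparison with the same DMSO libraries, a smaller share than the 35.3% of all genes called with Molib and the 35.1% with JQ1. STIM2, a calcium sensor of the endoplasmic reticulum, was at 18.1 ± 2.1 FPKM with Molib and 18.8 ± 0.37 FPKM with JQ1, against 6.63 ± 0.51 FPKM with DMSO (adjusted p = 0.0003 and 0.00027 under limma). NCS1 was at 3.26 ± 0.52 FPKM with Molib and 3.28 ± 0.00040 FPKM with JQ1, against 10.7 ± 0.55 FPKM with DMSO (adjusted p = 0.00027 and 0.00029), and EFHD2 was lower too (log2 fold changes -1.21 and -1.27, adjusted p = 0.00049 and 0.00041). All SDs are of 2 libraries.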
